A study of Mus musculus with 31 samples.

Results

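The genes described here encode proteins of the small (40S) subunit of the cytosolic ribosome. They were chosen by symbol, as 29 listed genes (Rpsa, Rps2, Rps3, Rps3a1, Rps4x, Rps6, Rps7, Rps9, Rps10, Rps12, Rps13, Rps14, Rps15, Rps15a, Rps16, Rps18, Rps19, Rps20, Rps21, Rps23, Rps24, Rps25, Rps26, Rps27, Rps27a, Rps27l, Rps28, Rps29 and Fau) of the 41255 gene rows in the tables. All 29 had a mean of at least 10 normalized reads in both kinds of RNA, as did 10627 genes in all. A normalized read is a read count divided by its library's size factor. The cells were Ba/F3, a mouse haematopoietic line that grows on interleukin-3. Monoclonal lines grown from single cells carried a retroviral human RPL10 cDNA, either wild type (WT clones 28, 29 and 36) or with the leukaemia-associated R98S change (RPL10 R98S clones 11, 13 and 35). All 6 clones, WT included, also expressed a short hairpin RNA against endogenous Rpl10 and were selected for its knock-down. Each clone was sampled under up to 3 replicate numbers, and the labels say nothing further about what a number stands for. Total mRNA was sequenced in 9 RPL10 R98S and 8 WT cultures, and RNA from pooled polysomal fractions in 8 and 6 of them. Replicate numbers were unevenly filled in polysomal RNA: number 1 held 3 RPL10 R98S libraries and 1 WT library, number 2 held 2 of each, and number 3 held 3 of each.

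The small subunit binds mRNA, scans it for the start codon and pairs codons with transfer RNA. Its proteins are made in nearly equal amounts, and most of their mRNAs start with a 5′ terminal oligopyrimidine (TOP) stretch, a C followed by C and T bases. Translation of TOP mRNAs is held back when signalling through mTOR falls, so that these mRNAs move between polysomes and lighter fractions. Because their coding sequences are short, few ribosomes fit on each.

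The start sites show how far the TOP feature can be read from annotation. RefSeq (GRCm38.p6) gave a promoter for 25 of the 29 genes, in 30 entries, and Rps14, Rps20, Rps27a and Rps29 had none. A C followed by at least 4 further C or T bases, with that C within 10 bases of the annotated start on the sense strand, was found in 16 of 30 entries (53.3%) and in 30.7% of all 32851 promoters. The motif CCGGAAG, searched on both strands of the 300-base window, was found in 12 of the 30 entries against 8.86% of all promoters, and TATAAA in 6.67% against 13.6%. The 30 bases around the annotated start, which is base 16, are shown for 6 genes with such a stretch and 3 without one. They include the genes with large, small and opposite differences described next, and capitals mark the stretch.
Rps6, chr4:86857353-86857382, minus strand: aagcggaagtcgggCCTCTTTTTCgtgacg
Rps15a, chr7:118116133-118116162, minus strand: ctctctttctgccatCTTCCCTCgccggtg
Rps27, chr3:90213634-90213663, minus strand: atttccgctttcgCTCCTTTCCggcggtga
Rps18, chr17:33955651-33955680, minus strand: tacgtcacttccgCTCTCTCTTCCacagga
Rps10, chr17:27635230-27635259, minus strand: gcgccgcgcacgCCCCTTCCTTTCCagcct
Fau, chr19:6057932-6057961, plus strand: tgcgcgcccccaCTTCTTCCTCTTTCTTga
Rps13, chr7:116334176-116334205, minus strand: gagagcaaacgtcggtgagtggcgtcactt
Rpsa, chr9:120127751-120127780, plus strand: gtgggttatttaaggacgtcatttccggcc
Rps4x, chrX:102189377-102189406, minus strand: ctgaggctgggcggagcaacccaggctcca
Rps18, the single gene that fell with replicate number 3 in polysomal RNA, had a stretch at its start, whereas Rps13, with one of the larger rises, had none at the annotated start. No match says only that these letters are absent from this window.

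Together the 29 genes took a share of polysomal RNA that differed by replicate number. In total mRNA their share of a library ran from 3.13% to 4.33%, with medians of 3.90%, 3.85% and 3.58% for replicate numbers 1, 2 and 3. In polysomal RNA the 4 libraries of number 1 held 2.58% to 4.07%, the 4 of number 2 held 2.53% to 3.48%, and the 6 of number 3 held 4.75% to 6.23%. All number 3 polysomal libraries thus lay above all others, in both genotypes. Libraries held between 8831180 and 22059792 assigned reads, so counting error was small against the spread between libraries for all of these genes except Rps18.

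**Figure D1:**
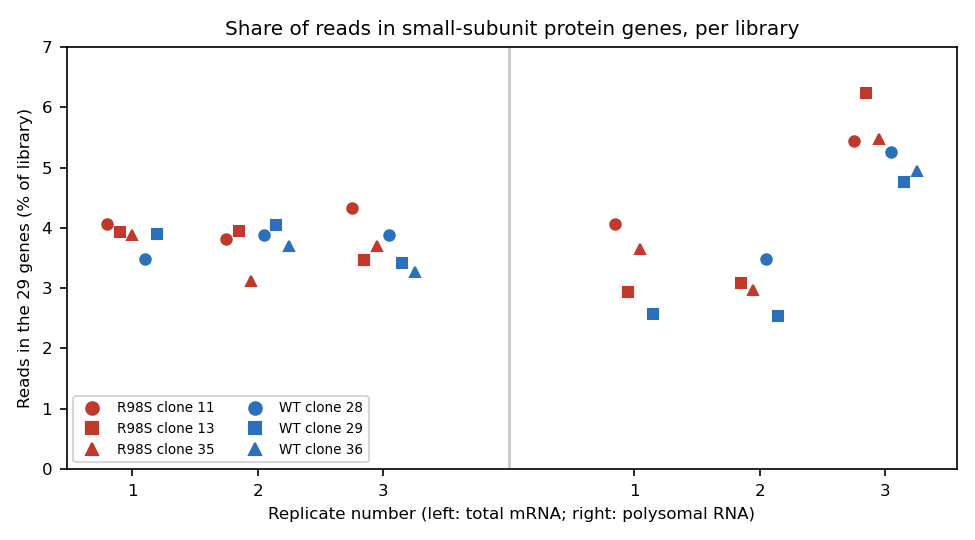
Percentage of each library's reads that fell in the 29 small-subunit protein genes (vertical axis, from 0), by replicate number (horizontal axis), for 17 total mRNA libraries on the left and 14 polysomal libraries on the right. Each point is 1 library, red for RPL10 R98S and blue for WT, with a symbol per clone; the 6 number 3 polysomal libraries sit between 4.75% and 6.23%, above the others.

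Most of these mRNAs were among the most abundant in the cell. By mean level, the median member stood at percentile 99.3 of the 11133 genes tested in total mRNA. Per kilobase of principal transcript (GENCODE M21), the highest level in total mRNA was that of Rps12, a head protein, at 52460 normalized reads per kilobase, followed by Rps4x at 50940 and Rps29 at 44620. In polysomal RNA the first was Rps25, which lies in the head, at 57630 per kilobase, then Rps4x at 53600 and Rps27a, made as a fusion with ubiquitin, at 53240. The lowest by far was Rps18, at 587.4 per kilobase of total mRNA and 128 of polysomal RNA. Next in total mRNA came Rps27l, a paralogue of Rps27, with 5063 per kilobase, and 7984 in polysomal RNA. Next in polysomal RNA came Rps20, at 7391 per kilobase. Rps20 and Rps3 have long annotated principal transcripts (3706 and 1908 bases), which lowers their level on this scale.

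Many members have near-identical copies elsewhere in the genome, and the authors kept only primary alignments above a mapping quality limit. Of the 50-base windows in the principal transcript, 16 of the 29 genes had over 50% also present in a transcript of another gene. For Rps27 the share was 98.7%, with Rps27rt as the main other gene, for Rps18 it was 86.7%, with Gm11361, and for Rps3 it was 2.96%. Rps18 lies in the major histocompatibility region at chr17:33951999-33956001 (GRCm38). Its polysomal values were 37.3 to 118 normalized reads. Levels of genes with high shared percentages are therefore uncertain, and the part of copies in any difference given here was not tested.

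The largest difference among polysomal libraries was between replicate numbers, and it was a rise in number 3. In a limma model with genotype, 27 of 29 genes were higher in number 3 than in both number 1 and number 2 (adjusted p under 0.1 for both), Rps18 was lower than in both, and Rpsa did not pass. The F test over the 3 numbers called 28 of 29 genes and 64.9% of all genes. Among all genes 29.6% rose and 30.3% fell by this criterion. The median difference of the 29 genes was 1.31 (log2) against number 1 and 1.37 against number 2, where the medians over all genes were -0.03 and -0.02. None of the 29 genes, nor of the 10707 tested, passed between numbers 2 and 1. In 23 genes every number 3 library lay above every other library, which held for 17.1% of all genes tested, and in Rps18 every one lay below, as in 15.2%. These counts depend on the scaling. With each library scaled by its total reads, 26 genes rose over number 1, as did 2021 of all 10707 genes tested. The median difference of the 29 genes was then 0.88, where the median over all genes was -0.46. With quantile normalization 17 rose over number 1, as did 3223 of all 10707, and Rpsa fell. Under quantile normalization the median difference of the 29 genes was 0.46 over number 1 and 0.51 over number 2, and 0.43 over number 1 in the polysomal to total ratio.

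Rps15a, a body protein, had the largest rise. Its polysomal values in number 1 were 16250, 9145 and 13353 normalized reads for RPL10 R98S clones 11, 13 and 35 and 7955 for WT clone 29, and in number 2 they were 10238 and 11049 for RPL10 R98S clones 13 and 35 and 6521 and 6664 for WT clones 28 and 29. In number 3 the 6 libraries ran from 37211 over a median of 42801 to 62723. The groups did not overlap, and the rise was 4.39-fold over number 1 (log2 2.13, SE 0.17, limma adjusted p = 2.4e-07) and 5.36-fold over number 2. The rise in Rps27l, which is induced by p53 in many cells, was similar, from 1045 to 2715 normalized reads over the 8 libraries of numbers 1 and 2 to between 5335 and 9623 in number 3. The fold was 3.84 over number 1 and 4.52 over number 2. Rps21, one of the smallest proteins of the subunit, went from 2660 to 5585 up to 13509 to 27512, and Rps28 from 3390 to 6193 up to 15190 to 24116. Both sets of ranges were without overlap.

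The same direction held with smaller size in the longer genes. Rps4x, encoded on the X chromosome, had 34718 to 54927 normalized reads in numbers 1 and 2 and 53169 to 81398 in number 3, a 1.61-fold rise over number 1 with ranges that met (limma adjusted p = 0.00096). Rps2, which lies at the mRNA entry, rose 1.58-fold, from 10733 to 19432 up to 17900 to 22573. The 19432 belonged to the number 2 library of WT clone 28, the only one of numbers 1 and 2 inside the number 3 range. Under quantile normalization Rps2 went the other way. It was -0.27 from number 1 (limma adjusted p = 0.14) and -0.32 from number 2 (limma adjusted p = 0.069). By position in the subunit, 11 of 12 head proteins and 16 of 17 body proteins rose, with median differences from number 1 of 1.26 and 1.32.

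The remaining members filled the range between. Rps19, the gene most often mutated in Diamond-Blackfan anaemia, had 7300 to 13448 normalized polysomal reads in numbers 1 and 2 and 16413 to 25500 in number 3, a 2.17-fold rise over number 1. Rps26, at the mRNA exit, went from 5124 to 10031 up to 19812 to 27855, 3.72-fold. Rps29, with 171 coding bases the shortest, went from 3876 to 9381 up to 14448 to 30655, 3.53-fold. None of these ranges met. Rps24 rose 3.52-fold, Rps14, at the platform, 2.78-fold, and Rps23, which reaches the decoding site, 2.34-fold. Fau, made as a fusion with a ubiquitin-like protein, had 8278 to 18236 and then 20766 to 25946, a 2.10-fold rise.

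**Figure D2:**
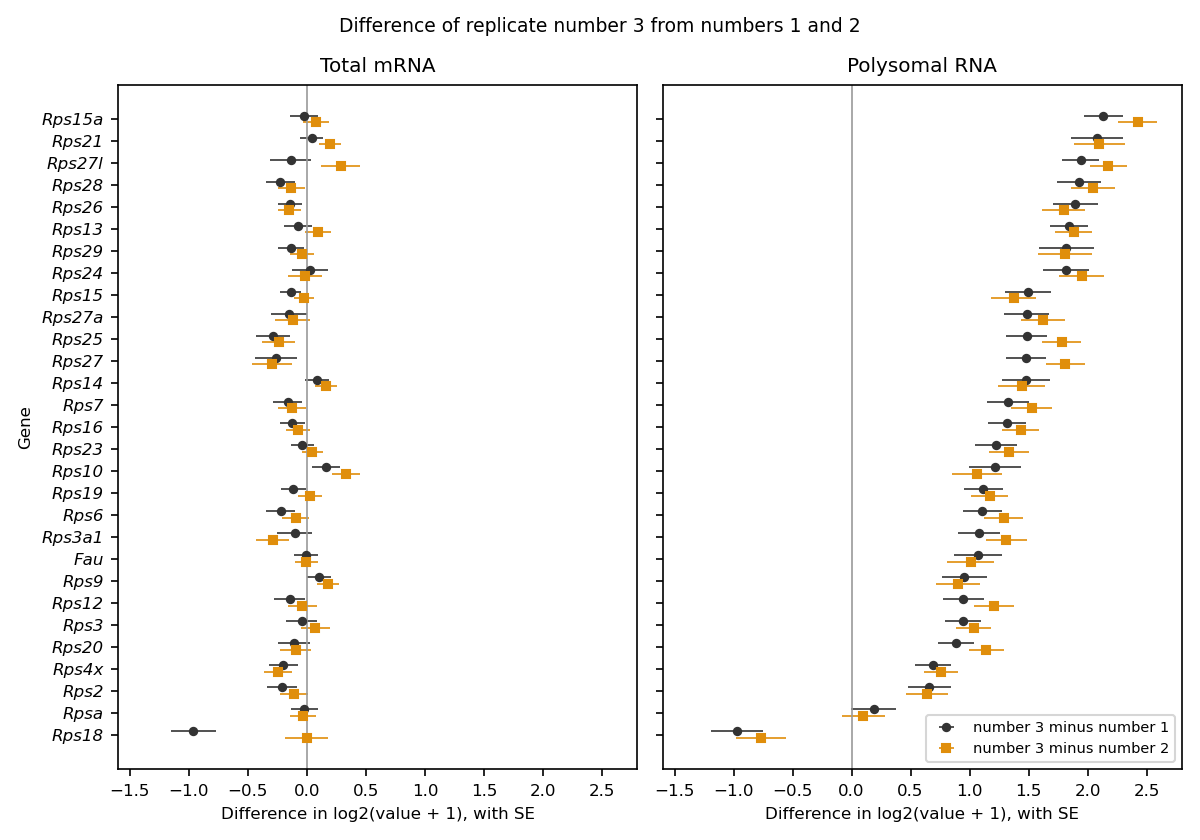
Difference of replicate number 3 from number 1 (black circles) and from number 2 (orange squares) for each of the 29 genes, on the log2(value + 1) scale with standard errors, in total mRNA (left) and polysomal RNA (right). In polysomal RNA 27 genes lie right of 0 beyond both tests, Rpsa lies near 0 and Rps18 left of 0, while most total mRNA differences lie near 0.

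Rpsa and Rps18 stood outside this pattern. Rpsa, the laminin receptor protein and with 888 coding bases the longest of the group, had 47806, 34718, 42090 and 35771 normalized reads in number 1 and 34902, 38105, 67598 and 35620 in number 2, against 37165 to 50152 in number 3. The ranges overlapped (0.19 over number 1, SE 0.19, limma adjusted p = 0.41), and the highest value was again the number 2 library of WT clone 28. Without WT clone 28 the difference from number 2 became 0.31 with limma adjusted p = 0.079. Rps18, a head protein, had 118, 112, 118 and 57.7 normalized reads in number 1 and 110, 90.5, 61.2 and 60.0 in number 2. In number 3 it ran from 37.3 to 57.2, a fall to 0.511 of number 1 (log2 -0.97, SE 0.22, limma adjusted p = 0.0014). The groups touched without overlapping.

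**Figure D3:**
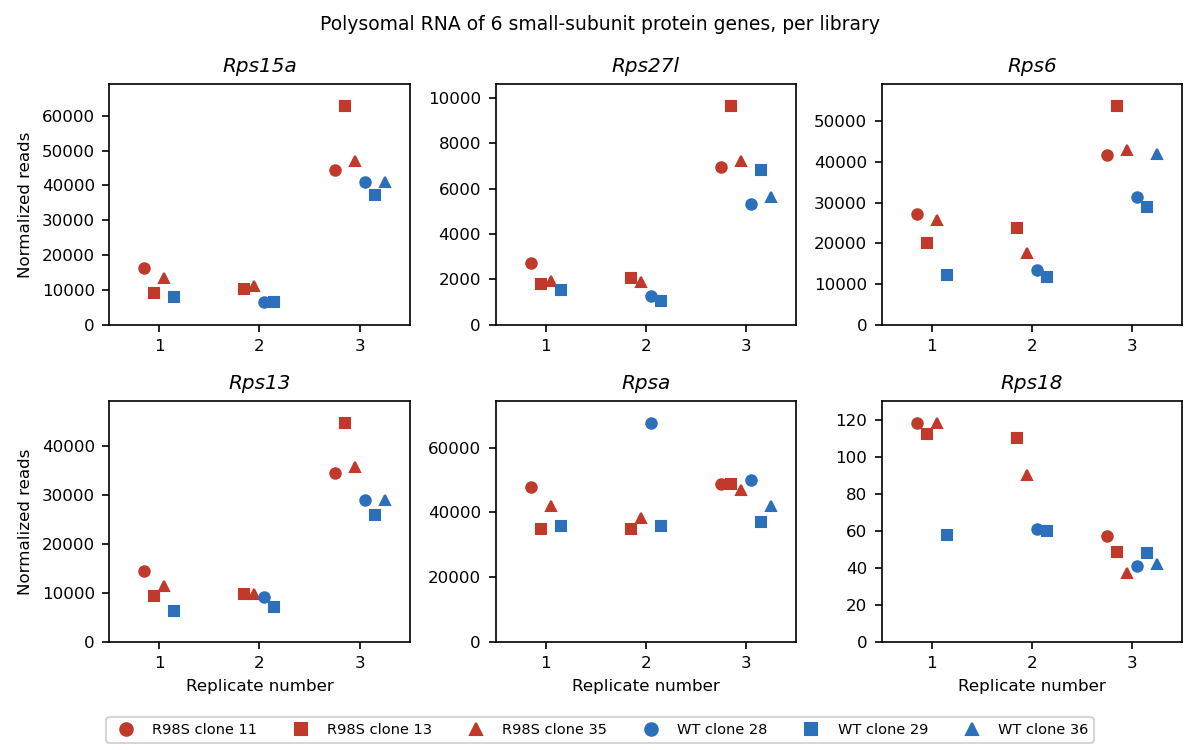
Normalized polysomal reads (vertical axis, from 0) of 6 genes by replicate number, 1 point per library, red for RPL10 R98S and blue for WT. Rps15a, Rps27l, Rps6 and Rps13 separate number 3 from the rest, Rpsa does not, and Rps18 runs the other way.

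The size of the number 3 difference followed coding length, in these genes as in all genes. Over the 29 genes, whose coding sequences run from 171 to 888 bases, the correlation of the number 3 minus number 1 difference with log2 coding length was -0.56 (Spearman -0.67), and without Rps18 it was -0.74. Over the 9879 tested genes with an annotated coding length it was -0.62. With log2 transcript length in place of coding length it was -0.60 over those genes and -0.34 over the 29. Genes share libraries and are not independent, so these are descriptions. The other 182 genes below 300 coding bases had a median difference of 1.51, against 1.93 for the 5 members of that length (Rps21, Rps27, Rps27l, Rps28 and Rps29). From 300 to 450 bases the medians were 1.26 for 462 other genes and 1.31 for 11 members. From 450 to 600 bases they were 0.93 and 1.32, and from 600 to 900 bases 0.59 for 1394 other genes and 0.82 for 6 members. Other genes of 3000 coding bases or more had a median of -0.84. By transcript length, members lay nearer to other genes below 1000 bases. The medians were 1.65 for 8 members and 1.67 for 80 other genes below 500 bases. From 750 to 1000 bases they were 1.08 for 7 members and 1.18 for 374 others. The few members with longer transcripts lay above, as from 1500 to 2000 bases, with 0.94 for 3 members and 0.34 for others. The rise of small-subunit genes was thus of the order seen in other short genes, and whether it exceeds them was not tested.

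**Figure D4:**
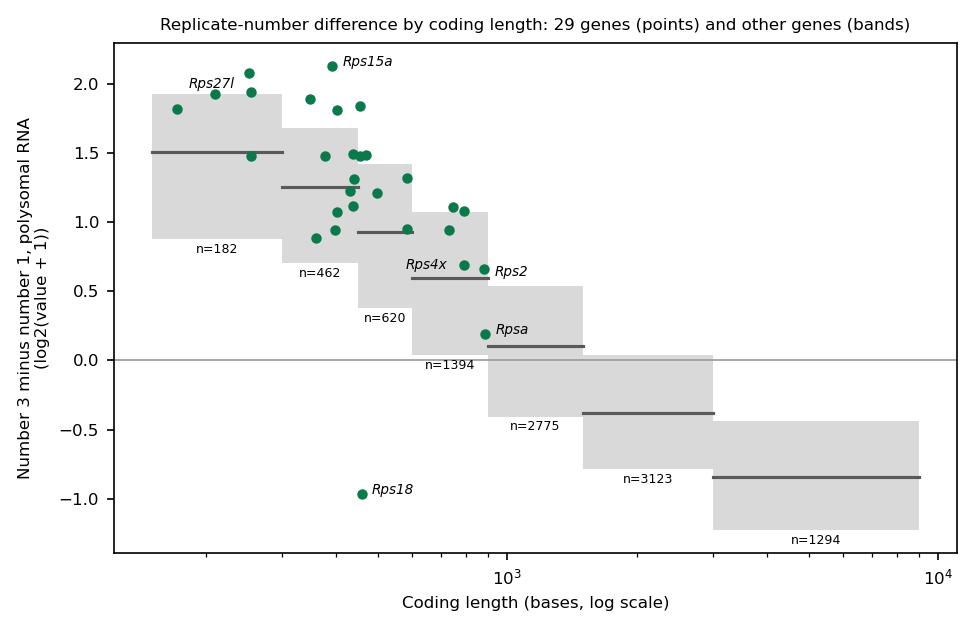
Number 3 minus number 1 difference in polysomal RNA (log2(value + 1)) against coding length in bases (log axis). Green points are the 29 genes, grey bands the interquartile range of all other genes in each length class with the median as a line and their number as n; the bands fall from 1.51 to -0.84 as length grows, and most green points lie in or above the band of their class.

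Total mRNA did not share this difference. There 2 of 29 genes differed among replicate numbers (limma F test, adjusted p under 0.1), where 43.5% of all genes did. Rps18 was lower in number 2 (log2 -0.96) and number 3 (log2 -0.96) than in number 1, with 387 to 562 normalized reads in number 1, and Rps10, a head protein, was 0.33 (log2) higher in number 3 than in number 2. The polysomal to total ratio was taken within the 14 cultures with both libraries. It showed the polysomal pattern in most members, and in Rps18 only against number 2. In the ratio 28 of 29 genes passed the F test (71.0% of all genes), 27 were higher in number 3 than in both others (23.2% of all genes), and the median difference from number 1 was 1.40. Against number 1, Rps18 fell by a like amount in both kinds of RNA, and its ratio did not pass (0.00, SE 0.32, limma adjusted p = 0.99). Against number 2 its ratio was lower (-0.72, SE 0.31, limma adjusted p = 0.058). For Rps28, a head protein, the log2 ratio ran from -1.94 to -0.81 in numbers 1 and 2 and from 0.66 to 1.46 in number 3. The 2 tables were scaled separately, so a ratio has meaning only against the other genes of both tables.

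Rpl10, the targeted gene, is no check of the genotype labels, since all clones carry the hairpin against it. It ran from 901 to 2984 normalized total mRNA reads in RPL10 R98S and from 620 to 5715 in WT. These ranges overlapped (-0.08, limma adjusted p = 0.89). Its polysomal range was 666 to 2046 against 1100 to 5567, lower in RPL10 R98S by the test (-1.20, limma adjusted p = 0.049, and -1.12, adjusted p = 2e-04, with the block). The labels call the line lymphoid, and the B-lineage markers Pax5, Ebf1, Igll1 and Blnk were at or near 0 in all libraries. Cd79a (706 to 1293 normalized reads) and Cd79b (149 to 591), of the same lineage, were present in every total mRNA library, and the interleukin-3 receptor chain Csf2rb ran from 28599 to 119310 in total mRNA. Lineage markers differed between genotypes: of 19 markers tested in polysomal RNA, 5 were higher and 3 lower in RPL10 R98S. Of 20 tested in total mRNA, 6 were higher and 6 lower. Csf2rb was 1.20 higher (log2, limma adjusted p = 1.8e-05), with 9 of 9 RPL10 R98S libraries above all WT libraries, and Cd79b was 0.87 higher. The mast cell gene Cpa3 was 3.20 higher, the globin gene Hba-a1 -3.41 and the myeloid gene Lyz2 -2.66. The T cell genes tested went both ways, with Cd3d at 1.85 and Cd3g at -3.06. Their part in the genotype differences of the small-subunit genes was not tested. The study left out 1 WT total mRNA library, of clone 36 in number 1, because it grouped with RPL10 R98S libraries by principal components. The WT total mRNA libraries used here are therefore a set from which 1 library resembling RPL10 R98S was removed, which bears on every genotype difference in total mRNA.

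Between genotypes, total mRNA of the small-subunit genes changed in 1 gene. Rps13, a body protein, rose in RPL10 R98S, and no other member passed, where 30.3% of all genes were called. The median difference of the 29 genes was -0.01 (log2), as it was 0.00 over all genes. Rps13 ran from 10382 over a median of 15071 to 17252 normalized reads in the 9 RPL10 R98S libraries and from 10802 over 11804 to 13651 in the 8 WT libraries. Of the RPL10 R98S libraries, 8 lay above every WT library and 1, clone 35 of number 2, lay below all of them. The difference was 0.30 (log2, SE 0.10, limma adjusted p = 0.035) and 0.29 (adjusted p = 0.028) with the replicate number as a block. It lost the call without number 1, where it was 0.22 (limma adjusted p = 0.25), and without number 3, where it was 0.25 (limma adjusted p = 0.28). Leaving out clones also ended it, at 0.24 without RPL10 R98S clone 11 (limma adjusted p = 0.19), 0.31 without WT clone 28 (limma adjusted p = 0.10) and 0.26 without WT clone 36 (limma adjusted p = 0.11). Without the low library of clone 35, 4 members passed, all higher in RPL10 R98S: Rps3, Rps6, Rps13 and Rps15a. The share of all genes called without that library is not given here, and with every library kept it was 30.3%.

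Several members lay close to the threshold in total mRNA. Rps3a1, a body protein, had 14166 to 24759 normalized reads in RPL10 R98S and 17944 to 28509 in WT, a difference of -0.29 (log2, SE 0.13, limma adjusted p = 0.11). It passed with the replicate block (-0.29, limma adjusted p = 0.074), which made 2 of 29 genes called, where 38.4% of all genes were. Of its 50-base windows, 71.0% are shared with other genes. Rps3, at the mRNA entry and also a DNA repair protein, had 27531 to 51285 in RPL10 R98S and 26955 to 36375 in WT, with 7 of 9 RPL10 R98S libraries above all WT libraries (0.24, SE 0.11, limma adjusted p = 0.11). The means of the 3 RPL10 R98S clones lay above those of the 3 WT clones in 4 members (Rps3, Rps13, Rps15a and Rps18) and below in Rps3a1, where 19.9% and 20.2% of all genes did so.

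In polysomal RNA no member passed between genotypes without regard to replicate number, where 13.5% of all genes were called (limma; 1 of 29 had an unadjusted p under 0.05, and edgeR called 0 and DESeq2 1). The spread this test used included the replicate number difference, and number 3 made up 3 of 8 RPL10 R98S libraries and 3 of 6 WT libraries. With the number as a block, 8 of 29 genes were higher in RPL10 R98S and none was lower, where 30.9% of all genes passed, 15.2% higher and 15.7% lower. The 8 were Rps3, Rps6, Rps7, Rps13, Rps15a, Rps18, Rps20 and Rps27l. The median difference over the 29 genes moved from 0.00 to 0.16 (log2), and 22 of 29 differences were positive, where 48.4% were over all genes. Single libraries moved this median: with the block it was 0.28 without WT clone 28 of number 2 (28 positive, 11 genes called) and 0.09 without RPL10 R98S clone 13 of number 3 (20 positive). With the 3 clone means of each genotype as the unit it was -0.10, with 9 positive and none called. Without WT clone 29 and without the block it was -0.33, with 5 positive. Both settings leave replicate number out of the model, and 1 WT clone has a polysomal library in number 3 only. Number 3 thus weighed more in WT than in RPL10 R98S, so neither setting can separate genotype from replicate number.

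Rps6, the substrate of S6 kinases, had the largest of these differences. Its values for RPL10 R98S were 27281, 19991 and 25738 normalized reads in number 1 for clones 11, 13 and 35, 23857 and 17493 in number 2 for clones 13 and 35, and 41589, 53619 and 42934 in number 3. For WT they were 12176 in number 1 for clone 29, 13423 and 11811 in number 2 for clones 28 and 29, and 31413, 28818 and 41806 in number 3. In numbers 1 and 2 every RPL10 R98S library lay above every WT library, and in number 3 the lowest, 41589, lay just under WT clone 36. With the block the difference was 0.65 (log2, SE 0.14, 1.57-fold, limma adjusted p = 0.0034), and without it 0.52 (SE 0.35, adjusted p = 0.43). Within numbers 1, 2 and 3 it was 0.99, 0.70 and 0.45.

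The other called genes showed differences of similar size. With the block Rps27l was 0.53 higher (log2, SE 0.13, limma adjusted p = 0.0083) and Rps15a 0.53 higher (SE 0.14, adjusted p = 0.012). Rps13, the gene that also passed in total mRNA, was 0.50 higher (SE 0.13, limma adjusted p = 0.013), and Rps3 was 0.45 higher (SE 0.13, adjusted p = 0.017). Rps20, a head protein, was 0.40 higher (limma adjusted p = 0.032), Rps18 0.50 higher (adjusted p = 0.063) and Rps7 0.38 higher (adjusted p = 0.077). All 8 were positive within each of the 3 numbers, although number 1 rests on a single WT library. For Rps18 the 5 RPL10 R98S libraries of numbers 1 and 2 held 90.5 to 118 normalized reads and the 3 WT libraries 57.7 to 61.2, while number 3 overlapped at 37.3 to 57.2. The genotype by number F test called none of the 29 genes in polysomal RNA, total mRNA or the ratio (limma; 3, 0 and 82 genes in all). Differences close to 0 with the block were those of Rps2 (0.01, SE 0.15), Rps9 (0.01, SE 0.16), Rpsa (-0.01, SE 0.16) and Rps3a1 (-0.01, SE 0.15). Within number 3 alone Rps13 and Rps20 passed, and within number 2 alone none did, where each genotype has 2 libraries. The share of all genes that passed in these tests is not given here, so neither count is set against it.

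**Figure D5:**
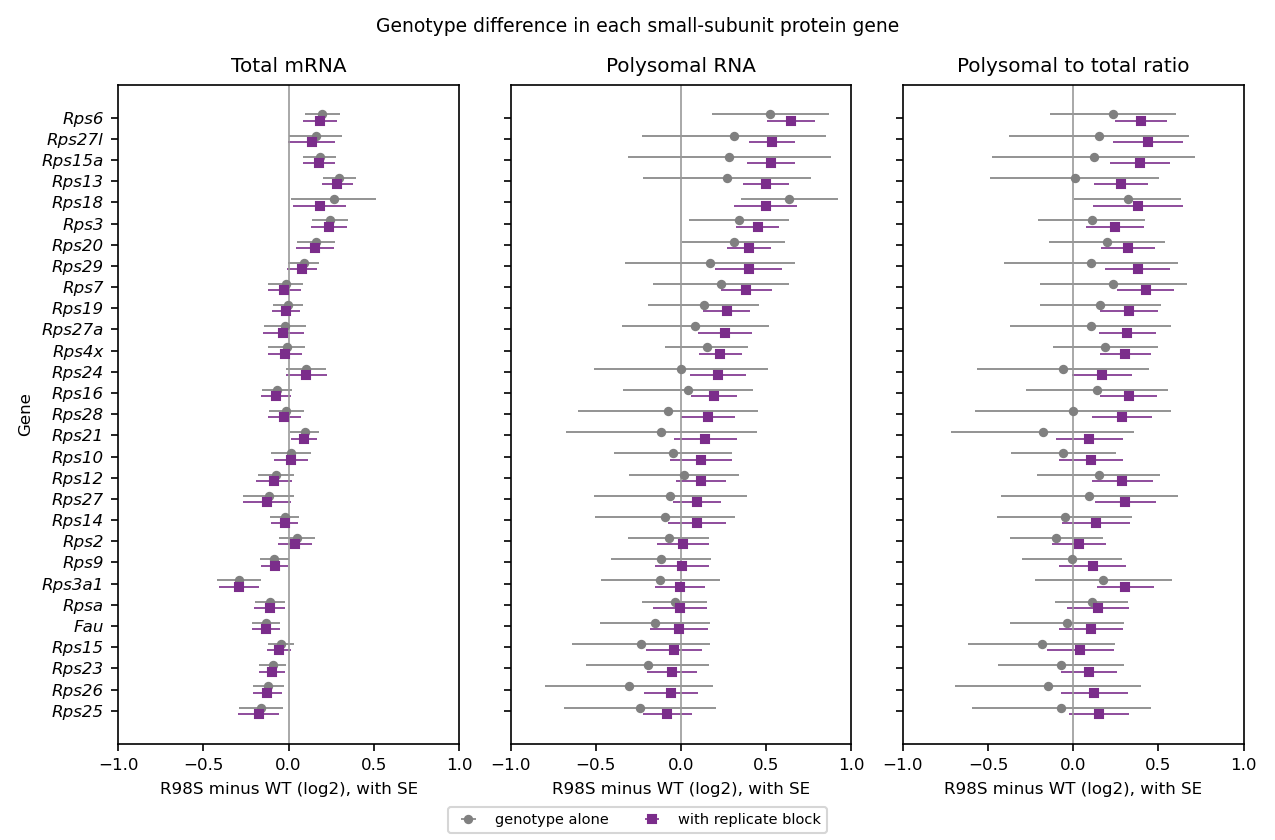
RPL10 R98S minus WT difference (log2, with standard errors) of each gene in total mRNA, polysomal RNA and the polysomal to total ratio, from the model with genotype alone (grey circles) and with the replicate number as a block (purple squares). With the block, 8 polysomal differences pass the test, all to the right of 0, and all 29 ratio differences lie to the right of 0 without passing it.

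The polysomal to total ratio gave no call between genotypes for any of the 29 genes, with or without the block. Over all genes 0.0376% were called without it and 0.47% with it. At an unadjusted p under 0.05, limma gave 0 of 29 genes without the block and 4 with it (Rps6, Rps7, Rps15a and Rps27l), where 5.96% and 12.4% of all genes were; edgeR and DESeq2 called 0. With the block all 29 differences were positive, with a median of 0.29 (log2) against 0.00 over all genes, whereas without it 17 were. Without the block the direction depended on which cultures entered. With the mean of each clone as the unit 7 were positive (median -0.15). When WT clone 29 was left out 1 was positive (median -0.30), and when number 2 was left out 6 were (median -0.12). In each of these settings number 3, where most members had a higher ratio, weighed more in WT than in RPL10 R98S. They therefore cannot separate genotype from replicate number. The largest difference with the block was that of Rps27l, 0.44 (SE 0.20, limma adjusted p = 0.39). With the block, 21 of 29 were positive without the single WT culture of number 1 (median 0.19), 24 without the number 2 culture of WT clone 29 (median 0.20) and 28 without the number 3 culture of RPL10 R98S clone 13 (median 0.23).

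Clones of one genotype were compared in 3 of the 4 sets of libraries. In RPL10 R98S total mRNA, Rps24, a body protein with several splice forms, was the 1 member that differed among clones (limma F test, adjusted p = 0.097), being 0.61 (log2) lower in clone 35 than in clone 11, where 4.08% of all genes were called. In RPL10 R98S polysomal RNA and in WT total mRNA none of the 29 genes passed, where 2.9% and 0.153% of all genes did. WT polysomal RNA was not tested among clones. There the number 2 libraries of WT clones 28 and 29 held 18236 and 8278 normalized reads for Fau, 18630 and 8622 for Rps10, and 9381 and 3876 for Rps29, but 6521 and 6664 for Rps15a. Clone 28 was the higher in 27 of the 29 genes, all but Rps15a and Rps25. Each clone has 1 library in this comparison, and no share over all genes is given for the count. In total mRNA the median member was 0.14 lower in clone 13 and 0.18 lower in clone 35 than in clone 11.

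Genes that serve the same subunit or carry TOP starts were read beside these values. The share of all genes called was 30.3% for total mRNA (38.4% with the block) and 13.5% for polysomal RNA (30.9% with the block). Of 29 genes for 40S assembly, 7 differed in total mRNA between genotypes (6 higher, 1 lower; 24.1%), or 11 with the block (9 higher, 2 lower), led by Rrp7a, a processome component, at 0.77 (log2, SE 0.19, limma adjusted p = 0.0066), then Pno1 at 0.68 and Utp14a at 0.52. In polysomal RNA 2 of them passed, both lower, or 5 with the block (2 higher, 3 lower). The 2 were Riok1, a kinase of late 40S maturation, at -0.44 (limma adjusted p = 0.047) and Tsr2, the chaperone of Rps26, at -0.69 (adjusted p = 0.089). In the ratio none passed. Of 47 large-subunit genes, 8 differed in total mRNA (4 higher, 4 lower), or 10 with the block, among them Rpl36 at -0.45, Rpl27a at 0.35 and Rpl37 at -0.25. None passed in polysomal RNA, or 7 with the block, all higher. In the ratio with the block none passed, and 47 of 47 differences were positive (median 0.22), as all 29 were for the small subunit. Of 20 other TOP genes, 7 differed in total mRNA (1 higher, 6 lower; 35.0%), or 8 with the block, led by Hnrnpa1 at -0.62 (limma adjusted p = 4.7e-05), Vim at -1.15 and Eef2 at -0.34, and 4 in polysomal RNA (1 higher, 3 lower), or 6 with the block (3 higher, 3 lower), where Vim was at -1.55, Hnrnpa1 at -0.63 and Eif4a2 at -1.01. Of 21 genes listed as regulators of TOP mRNAs or of ribosomal genes, 4 differed in total mRNA (19.0%), or 6 with the block. Among them were Max at 0.79, Eif4ebp1 at -0.64 and Rps6ka1 at 0.22. In polysomal RNA 2 differed, Larp4 at -0.50 and Larp7 at -0.40, or 9 with the block (1 higher, 8 lower). The place of Larp7 in this class rests on the list alone.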

How the data were processed

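Total mRNA and polysomal RNA (pooled fractions with several ribosomes per mRNA) were sequenced in 31 Ba/F3 libraries. Per the study's methods, the authors trimmed the first base, removed rRNA and tRNA reads with Bowtie2, aligned to mm10 with TopHat 2.0.11, kept primary alignments above a mapping quality limit and counted reads over exons. The annotation and the use of strand in counting are not given in the sources used here. The deposited values are a signal made by the authors from those read counts divided by DESeq2 size factors, for total and polysomal libraries separately. Division by the smallest step gave whole reads for every value (tolerance 1e-06). From these, log2(value + 1) was tested with limma 3.58.1 (R 4.3.3; empirical Bayes with trend, two-sided) in genes with a mean of at least 10, with Benjamini-Hochberg adjustment over all genes and a threshold of 0.1. Fold changes on this scale understate those of low genes. The ratio is the difference of log2 values within a culture. edgeR 4.0.16 and DESeq2 1.42.0 on recovered reads were alternatives.

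Groups came from the labels. Same-numbered samples of both genotypes deviated together (for numbers 1, 2 and 3, r was 0.62, 0.55 and 0.48 for total mRNA, 0.70, 0.67 and 0.87 for polysomal RNA, then 0.67, 0.54 and 0.81 for the ratio), so the number was taken to pair samples and was used as a block. Libraries of 1 clone are cultures of 1 line, so p-values over libraries reflect spread between cultures more than between clones. Every small-subunit gene could be named, and at most the 3 genes with the smallest adjusted p of each related list in each genotype comparison. Members and gene lists were chosen with earlier results of these data known. Scripts were tested on simulated data.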

Additional observations from a re-analysis of the deposited data

Results flagged for a closer look

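Of 174 groups of 4 to 10 libraries examined over the 29 genes, 2 held a library far from the others. A rate of 1 in 20 would give about 8.7, but only for independent groups without a difference inside them. Each group pooled the replicate numbers, and the number 3 difference widens the polysomal and ratio ranges. The count of 2 is therefore not set against 8.7. Rps13 in total mRNA was 10381.8 normalized reads in RPL10 R98S clone 35 of number 2, below the other 8 RPL10 R98S libraries, which ran from 13726 to 17252. Fau in total mRNA was 12671.7 in WT clone 36 of number 3, below the other 7 WT libraries, which ran from 15682 to 18238.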

How the results depend on the processing

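Whichever clone was left out, 28 of 29 genes differed among replicate numbers in polysomal RNA, with 27 of them higher in number 3 than in number 1 and Rps18 lower. In the ratio 27 to 28 genes differed, but 18 under quantile normalization. Under quantile normalization the polysomal difference of number 3 from numbers 1 and 2 became -0.27 and -0.32 for Rps2 and -0.57 and -0.65 for Rpsa, -0.0019 from number 1 for Rps20 and -0.022 from number 2 for Rps9. In the ratio it became -0.12 and -0.31 for Rps2, -0.12 and -0.25 for Rps9, -0.60 and -0.61 for Rpsa, and -0.30 from number 2 for Rps10. Scaling by total reads, added after seeing the data, gave -0.33 for Rpsa against number 2. The cause was not tested. The number of members differing by number in total mRNA was 2, 5 under quantile normalization, and 1 to 3 without single clones. Of all 11133 genes, 4843 differed in the main fit and 4816 under quantile normalization.

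Between genotypes in total mRNA, 1 member was called, where 30.3% of all genes were, or 38.4% with the replicate block. The count was 2 with the replicate block, with a mean of at least 50, with TMM scaling and with edgeR. It was 3 with DESeq2, with clone as a random block and with TMM scaling plus the block, 4 with scaling by total reads, and 5 with quantile normalization and with scaling by total reads plus the block. It was 0 within number 2 and within number 3 alone, and 0 to 5 when a replicate number, clone or library was left out. In polysomal RNA no member was called, where 13.5% of all genes were. The replicate block gave 8, where 30.9% of all genes were called. The count was 8 with TMM scaling plus the block and 11 with scaling by total reads plus the block. It was 2 within number 3 alone, and 1 with quantile normalization and with DESeq2. Leaving out a number, clone or library gave 0 to 11, the 11 being the block without WT clone 28 of number 2. There the Rps10 difference was 0.30, where the range for that gene over such omissions began at -0.52. The ratio gave 0 in every setting run, where 0.0376% of all genes were called in the main fit and 0.47% with the block. For the other settings the share of all genes called is not given here, so no count is set against it. A test within number 1 alone was not run for polysomal RNA or the ratio, since it holds 1 WT library. Among RPL10 R98S clones in total mRNA the 1 called member became 0 with no replicate block. With all libraries kept, the replicate block changed no other call of a member. Among fits without a single library it changed further counts. In total mRNA the count went from 4 to 5 without RPL10 R98S clone 35 of number 2. It went from 2 to 3 without WT clone 36 of number 3. It went from 1 to 2 without WT clone 28 of number 2 and without WT clone 29 of number 2 or of number 3. The same held without RPL10 R98S clone 11 or clone 35 of number 1. In polysomal RNA the count without single libraries was 0 to 1, and 6 to 11 with the block.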
